A study of Mus musculus with 6 samples.

Results

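Ribosome biogenesis is the building of ribosomes in the nucleolus, and 35 genes that carry it out were followed here in LT-HSCs, the long-term haematopoietic stem cells of mouse bone marrow, after sorting. The genes were chosen by name, with earlier results of these data known, and all 35 were found under their current symbols among the 23235 genes of the expression table. They were split by role into 6 RNA polymerase I genes, 4 box C/D genes, 4 box H/ACA genes and 21 pre-ribosome genes. The last group was further split into 9 small subunit, 7 large subunit and 5 general nucleolar genes.

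These cells can renew themselves and give rise to all blood lineages. RNA of 1500 sorted cells per library was sequenced from C57BL/6 animals at 2 months of age, with 3 libraries of wild type (WT) and 3 of Hmces knockout mice. No treatment or transgene is named for either genotype, and neither the knockout allele nor the sorting gates are described in the sources used here. All titles, WT included, carry the tag 13bp, which is not explained. HMCES attaches itself to DNA positions that have lost their base, which shields them during replication. The comparison asks how the RNA of knockout LT-HSCs differs from that of WT cells. The labels list 3 libraries per genotype, although the design text speaks of duplicates, and n = 3 counts the libraries. They do not say whether libraries came from separate animals, so the tests measure only the spread between these libraries, which may be technical.

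RNA polymerase I transcribes the long precursor of the ribosomal RNAs in the nucleolus. Small nucleolar RNAs then guide its chemical marking: box C/D particles carry the methyltransferase fibrillarin, and box H/ACA particles carry the pseudouridine synthase dyskerin. Further proteins fold, cut and assemble the precursor into the small and the large subunit. Haematopoietic stem cells are known for a low rate of protein synthesis compared with the progenitors they give rise to, and the transcription factor MYC is a known activator of many ribosome biogenesis genes.

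MYC binds the palindromic E-box CACGTG, so the promoters of the members were searched for these letters, which read the same on both strands. Windows of 300 bases, from 250 before to 50 after the annotated start, were taken from RefSeq (GRCm38.p6) and matched 30 of the 35 members by symbol. The letters were found for 7 of the 30 members (23.3%), against 12.3% of the 8119 tested genes with a window and 8.09% of all 27025 genes with a window. In the 250 bases before the start alone, 2 of 30 members had them (6.67%), against 10.3% of tested genes. The matching sites are shown because they are the known binding letters of the pathway's best described activator. Each is given 5′ to 3′ on the gene's strand, with the E-box in capitals and up to 12 bases on either side.
Nop2, chr6:125131811-125131840, plus strand: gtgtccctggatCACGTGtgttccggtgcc
Rrn3, upstream site, chr16:13780472-13780501, plus strand: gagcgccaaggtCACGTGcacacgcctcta
Rrn3, site nearer the start, chr16:13780639-13780668, plus strand: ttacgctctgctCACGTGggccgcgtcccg
Ltv1, chr10:13193092-13193121, minus strand: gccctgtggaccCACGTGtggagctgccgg
Pes1, chr11:3963965-3963994, plus strand: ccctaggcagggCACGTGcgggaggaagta
Mybbp1a, chr11:72441355-72441376, plus strand: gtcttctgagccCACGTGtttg
Tsr1, chr11:74898092-74898121, plus strand: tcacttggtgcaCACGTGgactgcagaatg
Wdr43, chr17:71616220-71616249, plus strand: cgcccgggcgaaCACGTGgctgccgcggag
The sites of Nop2 and Rrn3 lie before the start and the other 5 members have theirs after it. A match is a description of these letters, not evidence of binding.

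Levels are FPKM, fragment counts scaled to transcript length and to library size, so they can be compared between genes per length but are relative to each library's total. Fewer cells of a type and less RNA per cell cannot be told apart in such bulk samples. Depth, read from the steps of low values, was between an estimated 9283648 and 14204799 fragments per library (knockout replicate 3 and WT replicate 3). Hmces, listed as 8430410A17Rik, was at 39.5, 45.4 and 41.0 FPKM in WT replicates 1 to 3 and at 8.95, 0.222 and 6.95 FPKM in knockout replicates 1 to 3. Its log2 fold change was -3.23 (SE 0.71, limma adjusted p = 0.289), so even the targeted gene did not pass an adjusted p of 0.05. On the first principal component of all tested genes, knockout replicate 2 was far from the rest, at 67.0 against -33.6 to 10.1 for the other libraries. Of 15 LT-HSC markers, 13 had a mean of at least 1 FPKM, while Fgd5 and Hoxb5 did not. RNA of Cd48 and Flt3, whose proteins are low on LT-HSCs, was present at 121 FPKM or more in every library. Mean Cd48 levels were 180 ± 37.7 FPKM for WT and 279 ± 24.1 FPKM for knockout (SD, n = 3 each), with every knockout library above every WT library (limma adjusted p = 0.324). All 16 granulocyte and monocyte markers had a positive log2 fold change, against 5552 of the 11532 genes tested, down to 0.06 for Csf1r. Mpo had means of 177 and 1160 FPKM in WT and knockout (limma adjusted p = 0.0307), and Ctsg 56.0 and 544 FPKM (limma adjusted p = 0.0494). The summed level of the 16 ran from 7235.5 to 11123 FPKM in WT and from 20045 to 26537 FPKM in knockout libraries. S100a8 and S100a9 made up most of each sum. None of these 16 was at 0 in all libraries of a genotype. The 6 mast cell, basophil and eosinophil markers summed to 34.3 to 79.9 FPKM in WT and to 74.0 to 1009.8 FPKM in knockout libraries, highest in knockout replicate 1, with Prg2, an eosinophil granule gene, at 956 FPKM in knockout replicate 1. Summed LT-HSC markers were at 790 to 869 FPKM in WT libraries and at 924 to 959 FPKM in knockout libraries. Summed erythroid, megakaryocyte, B cell, T and NK cell, and stromal markers had overlapping groups. Nkg7 made up most of each T and NK cell sum, and Cd79b was the largest part of each B cell sum. Every knockout library lay above every WT library for 1 of 4 tested B cell markers, Vpreb1 (log2 fold change 2.11). The same held for 2 of 4 T and NK cell markers, Cd3d (1.47) and Il7r (1.28), and 1 of 2 stromal markers, Lepr (0.33). Their limma adjusted p ran from 0.313 to 0.77. The reverse held for 0 markers of these lists. Over all tested genes, 7.47% lay above and 8.34% below in this way. Of the 13 tested LT-HSC markers, 4 (30.8%) also lay above, Ly6a, Mllt3, Tek and Esam, and 0 lay below. The part of these markers in the results below was not tested.

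Ribosome biogenesis genes were mostly a little lower in Hmces knockout than in WT LT-HSCs, and no single member passed the test. All 35 had a mean FPKM of at least 1 and entered the test. The log2 fold change, taken as knockout minus WT after log2(FPKM + 1), was negative for 30 of the 35 members, with a median of -0.18. Over all 11532 genes tested, 51.9% had a negative value and the median was -0.01. Among the 8470 genes with a mean of at least 5 FPKM, these were 54.6% and -0.03. All-gene shares here and below are not matched to the members' level, which in WT ran from percentile 37.1 (Polr1a) to 99.2 (Npm1). The members' values ran from -0.88 for Gar1 to 0.23 for Nop14. At an adjusted p under 0.05 in limma, 0 of 35 members were called, against 13 genes overall (0.113%). At an unadjusted p under 0.05, 5 members (14.3%) were lower and 0 higher, against 4.84% and 4.32% of all genes. Every knockout library lay below every WT library for 6 members (17.1%) and above for 0, against 8.34% and 7.47% of all genes. No test of the members as a set was made, so these shares are descriptions of genes chosen with earlier results known.

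**Figure D1:**
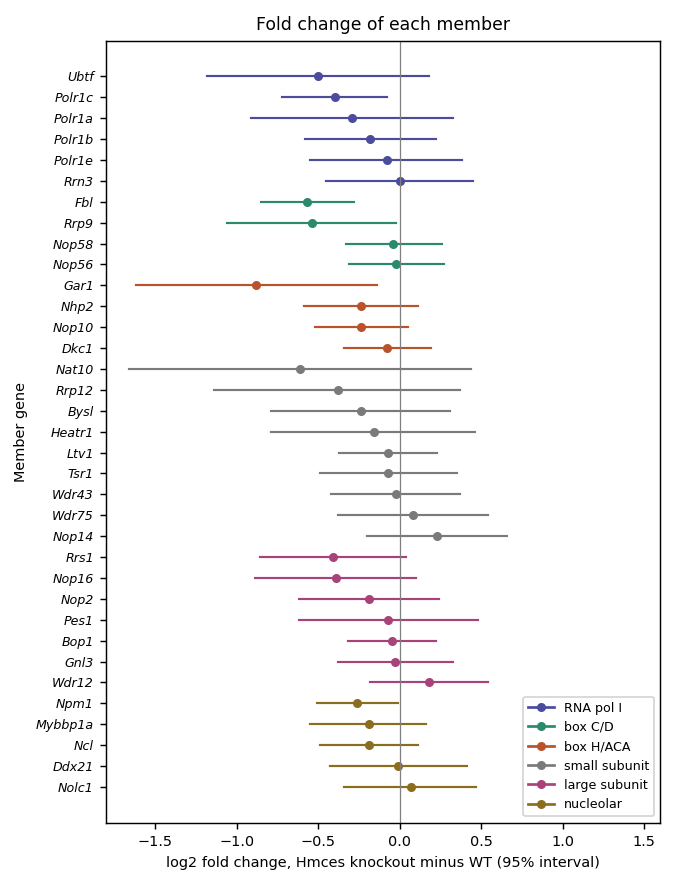
Log2 fold change of each member, knockout minus WT of log2(FPKM + 1) (points) with the 95% interval from limma (lines), coloured by role, 3 libraries per genotype. Of the 35 points, 30 lie left of 0, and most intervals cross 0.

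The size of this shift depended on knockout replicate 1, the library with the high Prg2 level, and its count on the scaling. Without that library the median was -0.09, with 27 of 35 members negative, against 49.9% of all genes. Without knockout replicate 2, which stood apart, the median was -0.18 and 28 were negative. Under quantile normalization the median was -0.15 and 25 were negative, since Nop56, Nop58, Wdr43, Gnl3 and Ddx21 went from just below to just above 0.

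RNA polymerase I genes had a median log2 fold change of -0.24, with 5 of 6 members negative and 0 called. Polr1c encodes a subunit shared with RNA polymerase III. Its level was 47.8, 48.5 and 55.5 FPKM in WT and 41.2, 37.0 and 36.2 FPKM in knockout replicates 1 to 3. All knockout libraries were below all WT libraries, at a log2 fold change of -0.40 (SE 0.14, limma adjusted p = 0.490). Ubtf encodes the factor that binds and opens ribosomal DNA repeats. It was read at 30.7, 36.5 and 38.1 FPKM in WT against 14.6, 32.3 and 30.4 FPKM in knockout libraries. The low value belonged to knockout replicate 1, and the log2 fold change of -0.50 (SE 0.29, limma adjusted p = 0.646) became -0.15 without it. Polr1a, the gene of the largest catalytic subunit, was the lowest of all members at 6.75, 9.56 and 6.92 FPKM in WT and 4.73, 6.72 and 7.04 FPKM in knockout libraries, with overlapping groups.

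Among the remaining polymerase genes, Polr1b, which encodes the second catalytic subunit, was almost constant in WT, at 28.9 ± 0.0454 FPKM (SD, n = 3). In knockout libraries it was at 20.8, 28.0 and 27.9 FPKM. These groups do not overlap, but knockout replicates 2 and 3 lay close to the WT values. Polr1e, another subunit gene, had 19.9 ± 2.21 and 18.8 ± 3.35 FPKM in WT and knockout cells (SD, n = 3 each). Rrn3, whose product brings the polymerase to the promoter, had 35.1 ± 3.87 and 35.6 ± 8.30 FPKM (SD, n = 3 each). Its log2 fold change was 0.00, with a 95% interval from -0.45 to 0.45, and -0.02 under median scaling.

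**Figure D2:**
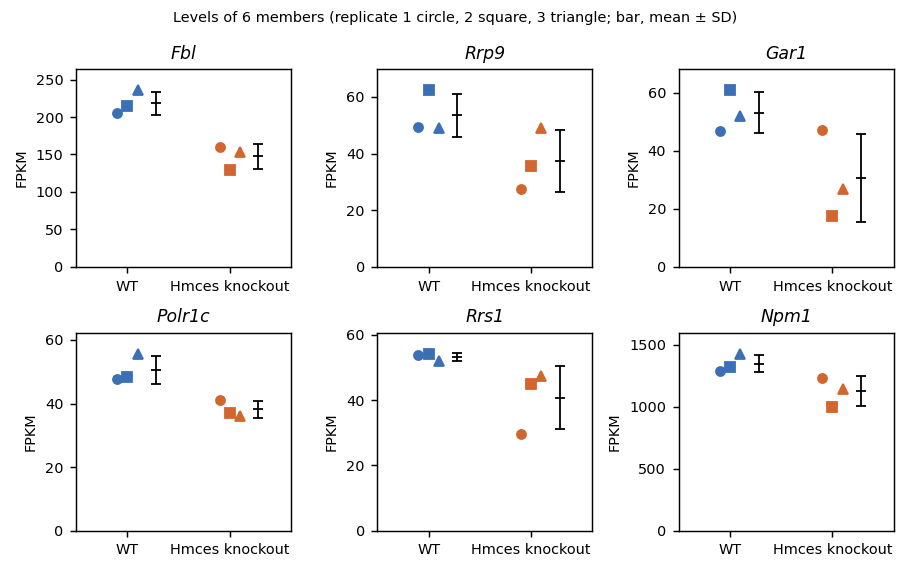
FPKM of Fbl, Rrp9, Gar1, Polr1c, Rrs1 and Npm1 in each of 3 WT and 3 Hmces knockout libraries (points, with the symbol giving the replicate) and the mean ± SD (bars). Knockout values lie below all WT values for each gene but Gar1, whose knockout replicate 1 at 47.2 FPKM falls within the WT range.

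Box C/D genes had a median log2 fold change of -0.29, with 4 of 4 negative and 0 called, and their values ran from -0.57 for Fbl to -0.02 for Nop56. Fbl encodes fibrillarin, the methyltransferase of the particle. It stood at 205, 214 and 235 FPKM in WT against 160, 129 and 153 FPKM in knockout libraries. Every knockout library was below every WT library, and the mean was 67.5% of WT. The log2 fold change was -0.57 (SE 0.12, 95% interval -0.85 to -0.28, limma adjusted p = 0.289), with the smallest p of the 35. Leaving out each library in turn gave between -0.63 and -0.47, with an adjusted p from 0.231 to 0.649. Rrp9 encodes a protein specific to the particle that starts small subunit processing. It was at 49.2, 62.3 and 49.1 FPKM in WT against 27.4, 35.5 and 49.1 FPKM in knockout libraries. Knockout replicate 3 thus reached the lower end of the WT values, and the log2 fold change of -0.54 (SE 0.22, limma adjusted p = 0.535) was -0.34 without knockout replicate 1.

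Nop56 and Nop58 encode the paired scaffold proteins on which fibrillarin sits. Nop58 was at 117, 132 and 154 FPKM in WT against 132, 133 and 125 FPKM in knockout libraries, with the knockout values inside the WT range. Nop56 had 184 ± 14.1 and 182 ± 21.2 FPKM (SD, n = 3 each). Their log2 fold changes were -0.04 (95% interval -0.33 to 0.26) and -0.02 (95% interval -0.31 to 0.27).

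The balance within the box C/D core was compared inside each library, where scaling to the library total cancels. These ratios were chosen after the values were seen, and pairs within a complex share genes. The ratio of Fbl to Nop56 was 1.21, 1.08 and 1.27 in WT and 0.820, 0.819 and 0.791 in knockout libraries. By FPKM, Fbl was therefore above Nop56 in every WT library and below it in every knockout library. Fbl has 981 coding bases, Nop56 1740 and Nop58 1608, and effects of length do not cancel in such ratios. The part of length in these ratios was not tested. The ratio of Fbl to Nop58 was 1.76, 1.62 and 1.53 in WT and 1.21, 0.967 and 1.22 in knockout libraries, again without overlap. Nop56 to Nop58 gave 1.38 ± 0.157 and 1.40 ± 0.195 (SD, n = 3 each). Over 12 pairs within 3 complexes, 3 had groups that did not overlap, among them both pairs with Fbl. Each had an exact two-sided permutation p of 0.1, the smallest that 3 against 3 libraries allow, and 0.4 after Benjamini-Hochberg adjustment. No pair could therefore pass 0.05. A share over all gene pairs was not computed, so the count is only a description.

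Box H/ACA genes were all negative, 4 of 4, with a median log2 fold change of -0.24. Gar1, a core protein gene of these particles, was at 46.7, 60.8 and 51.9 FPKM in WT against 47.2, 17.6 and 26.9 FPKM in knockout libraries. Knockout replicate 1 was at the WT level and replicates 2 and 3 were well below it. The log2 fold change was -0.88 (SE 0.32, limma adjusted p = 0.499), -0.55 without knockout replicate 2 and -1.24 without knockout replicate 1. Nop10, whose product is a very small core protein, was at 599, 667 and 574 FPKM in WT against 592, 456 and 518 FPKM in knockout libraries. Nhp2, the gene of the fourth core protein with an RNA-binding fold, was at 216, 229 and 203 FPKM in WT against 220, 150 and 184 FPKM in knockout libraries. For both genes knockout replicate 1 lay within the WT range and knockout replicate 2 was lowest. Dkc1, which encodes the pseudouridine synthase dyskerin and is mutated in dyskeratosis congenita, had 153 ± 6.98 and 146 ± 14.2 FPKM (SD, n = 3 each).

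The 4 core genes kept the same order of level in both genotypes, Nop10 above Nhp2, Dkc1 and Gar1. WT libraries gave no overlap between neighbours in this order, whereas the knockout values of Nhp2 and Dkc1 overlapped. The ratio of Nhp2 to Gar1 was 4.63, 3.76 and 3.91 in WT and 4.66, 8.50 and 6.82 in knockout libraries. These groups were separated only narrowly, by WT replicate 1 and knockout replicate 1. Nop10 to Nhp2 stayed at 2.84 ± 0.0746 and 2.85 ± 0.181 (SD, n = 3 each).

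**Figure D3:**
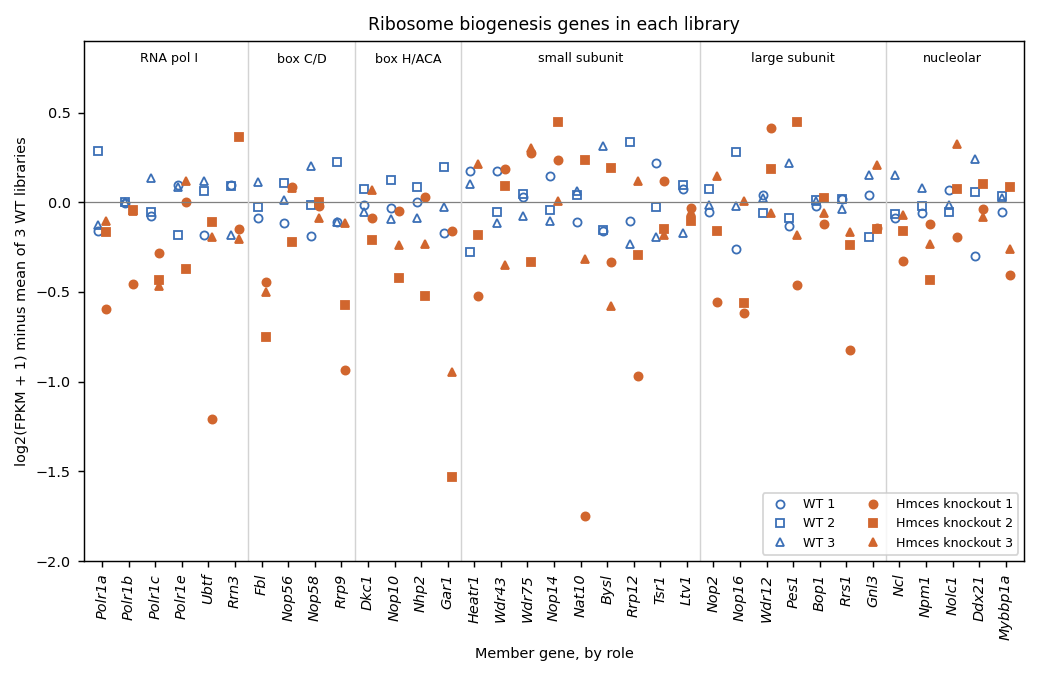
Level of each of the 35 members in each library as log2(FPKM + 1) minus the mean of the 3 WT libraries, by role. WT libraries are open symbols and Hmces knockout libraries filled ones, and the lowest points belong to Nat10 and Ubtf in knockout replicate 1 and to Gar1 in knockout replicate 2.

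Small subunit genes had a median log2 fold change of -0.07, with 7 of 9 negative. Nat10 encodes the enzyme that acetylates cytidines of ribosomal RNA. It was at 19.0, 21.2 and 21.5 FPKM in WT against 5.41, 24.3 and 16.3 FPKM in knockout libraries, so that knockout replicate 1 was far below and replicate 2 above every WT value. Its log2 fold change of -0.61 (SE 0.45, limma adjusted p = 0.706) became -0.04 without knockout replicate 1. Rrp12, an export factor gene of pre-ribosomes, was at 9.86, 13.7 and 8.94 FPKM in WT against 4.95, 8.52 and 11.7 FPKM in knockout libraries. Its log2 fold change of -0.38 became -0.09 without knockout replicate 1. Nop14, a component of the small subunit processome, had the highest log2 fold change of the members, 0.23 (SE 0.19, limma adjusted p = 0.727). It was at 21.7, 18.9 and 18.1 FPKM in WT against 23.2, 27.0 and 19.6 FPKM in knockout libraries, with overlap.

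The other 6 small subunit genes had overlapping groups and log2 fold changes between -0.24 and 0.08. Bysl, a late assembly factor, had 32.8 ± 6.61 and 28.0 ± 8.15 FPKM. The processome genes Heatr1, Wdr43 and Wdr75 also serve transcription by RNA polymerase I. Heatr1 had 10.3 ± 1.81 and 9.22 ± 2.61 FPKM, and Wdr43 had 74.7 ± 8.17 and 74.0 ± 14.1 FPKM. Wdr75 had 34.0 ± 1.62 and 36.8 ± 8.63 FPKM. Tsr1 and Ltv1 act late, on the nearly finished small subunit. Tsr1 had 25.1 ± 3.79 and 23.7 ± 2.94 FPKM, and Ltv1 had 64.2 ± 6.42 and 61.1 ± 1.58 FPKM (SD, n = 3 in each genotype).

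Large subunit genes had a median log2 fold change of -0.07, with 6 of 7 negative. Rrs1 encodes a protein needed to load the separate short ribosomal RNA. It was nearly constant in WT, at 54.0, 54.0 and 51.9 FPKM, and was at 29.7, 45.0 and 47.5 FPKM in knockout libraries. The groups did not overlap, and the log2 fold change was -0.41 (SE 0.19, limma adjusted p = 0.571), or -0.20 without knockout replicate 1. Nop16, an early assembly factor gene, was at 56.1, 82.2 and 66.4 FPKM in WT against 43.5, 45.4 and 67.6 FPKM in knockout libraries. Knockout replicate 3 was inside the WT range, and the log2 fold change was -0.39 (SE 0.21, limma adjusted p = 0.623).

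Pes1, Bop1 and Wdr12 encode the partners of a complex that acts in large subunit maturation. Wdr12 was at 51.6, 48.0 and 51.0 FPKM in WT against 67.2, 57.1 and 48.2 FPKM in knockout libraries, with a log2 fold change of 0.18 (95% interval -0.18 to 0.54). Bop1 was steady at 64.3 ± 0.838 and 62.0 ± 3.25 FPKM, while Pes1 had 58.0 ± 8.13 and 57.1 ± 19.5 FPKM. The knockout spread of Pes1 ran from 41.6 FPKM in replicate 1 to 79.0 FPKM in replicate 2. Nop2, an rRNA cytosine methyltransferase gene, had 62.2 ± 2.91 and 55.5 ± 13.4 FPKM. Gnl3, which encodes the stem cell nucleolar protein nucleostemin, had 84.3 ± 10.2 and 82.8 ± 12.4 FPKM (SD, n = 3 in each genotype).

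General nucleolar genes had a median log2 fold change of -0.19, with 4 of 5 negative. Npm1 encodes nucleophosmin, an abundant nucleolar chaperone that is often mutated in acute myeloid leukaemia, and was the most abundant member. It was at 1292, 1325 and 1424 FPKM in WT against 1236, 997 and 1144 FPKM in knockout libraries. All knockout values were below all WT values, at 83.6% of the WT mean. The log2 fold change was -0.26 (SE 0.11, 95% interval -0.51 to -0.01, limma adjusted p = 0.532), and -0.14 under quantile normalization. Npm1 has processed copies in the mouse genome, so its level is less certain than that of single-copy genes. Ncl, the nucleolin gene, was at 97.4, 99.1 and 115.6 FPKM in WT against 82.4, 92.7 and 98.8 FPKM in knockout libraries, with overlap at the edge.

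Mybbp1a, which encodes a nucleolar protein that binds MYB, was at 68.3, 72.8 and 72.3 FPKM in WT against 53.5, 75.6 and 59.2 FPKM in knockout libraries. Knockout replicate 2 was above every WT value and the other knockout libraries below. Nolc1, a chaperone gene of small nucleolar particles, had 31.1 ± 1.44 and 33.0 ± 6.05 FPKM. The helicase gene Ddx21 had 30.2 ± 5.73 and 29.7 ± 2.09 FPKM (SD, n = 3 in each genotype). Members with an E-box in their window had a median log2 fold change of -0.07 (6 of 7 negative) and the 23 with a window but no E-box -0.18 (19 negative). The 5 members without a window, Fbl, Npm1, Rrs1, Rrp12 and Bop1, enter neither median, although Fbl had the smallest p of all members.

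Knockout libraries differed more among themselves than WT libraries did. The SD on the log2(FPKM + 1) scale was larger in knockout for 29 of 35 members (82.9%), against 63.8% of all genes tested. The median coefficient of variation of FPKM was 9.64% in WT and 18.3% in knockout for the members, and 18.2% and 24.1% for all genes. Knockout replicate 1 held the lowest value of all 6 libraries for 15 members (42.9%) and knockout replicate 2 for 9 (25.7%), against 21.0% and 20.9% of all genes. Knockout replicate 3 held it for 4 members (11.4%, against 15.8% of all genes). WT replicates 1, 2 and 3 held it for 2, 2 and 3 members (5.71%, 5.71% and 8.57%), against 14.7%, 11.3% and 16.3% of all genes. The median log2 ratio to the WT mean over the members was -0.06, 0.02 and 0.00 in WT replicates 1 to 3 and -0.16, -0.16 and -0.09 in knockout replicates 1 to 3. For all genes it stayed between -0.02 and 0.02 in each library.

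**Figure D4:**
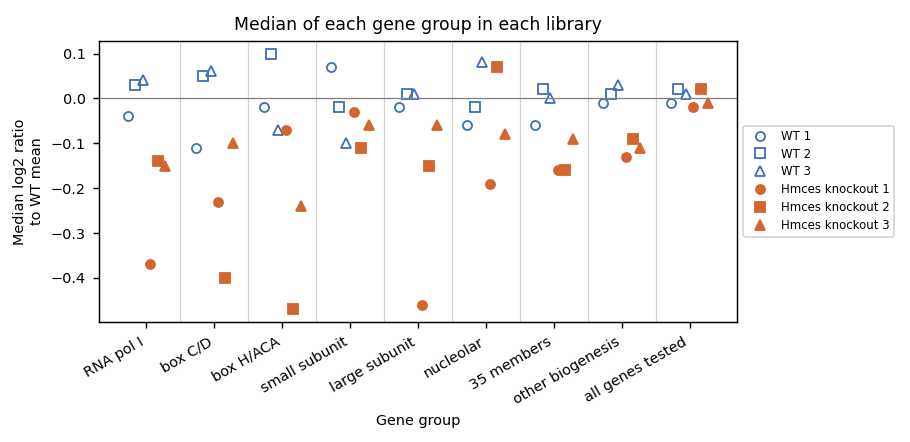
Median log2 ratio to the WT mean in each library for the 6 roles, the 35 members, the other ribosome biogenesis genes and all genes tested. Over the 35 members the knockout medians of -0.16, -0.16 and -0.09 lie below the WT medians of -0.06 to 0.02.

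The library with the lowest median differed between roles, and these differences were not tested. RNA polymerase I and large subunit genes were lowest in knockout replicate 1, with medians of -0.37 and -0.46 there against -0.14 and -0.15 in replicate 2. Box C/D and box H/ACA genes were lowest in knockout replicate 2, with medians of -0.40 and -0.47 there against -0.23 and -0.07 in replicate 1. Small subunit genes had medians of -0.03, -0.11 and -0.06 in knockout replicates 1 to 3 and nucleolar genes -0.19, 0.07 and -0.08. Coding length was taken from GENCODE M21. The log2 ratio to the WT mean had a Spearman correlation with coding length over the 35 members of -0.19, 0.50 and 0.37 in knockout replicates 1 to 3. Over 9782 tested genes it was -0.08, 0.17 and 0.10. In knockout replicate 2 the 6 members with under 1000 coding bases had a median of -0.54 and the 16 with at least 2000 had -0.08, against -0.09 and 0.15 for all genes of those lengths. Knockout replicate 1 gave -0.14 and -0.37 for the same members, against 0.01 and -0.07. These genes share their libraries, so the correlations carry no test, and the part of length in the fold changes was not tested.

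**Figure D5:**
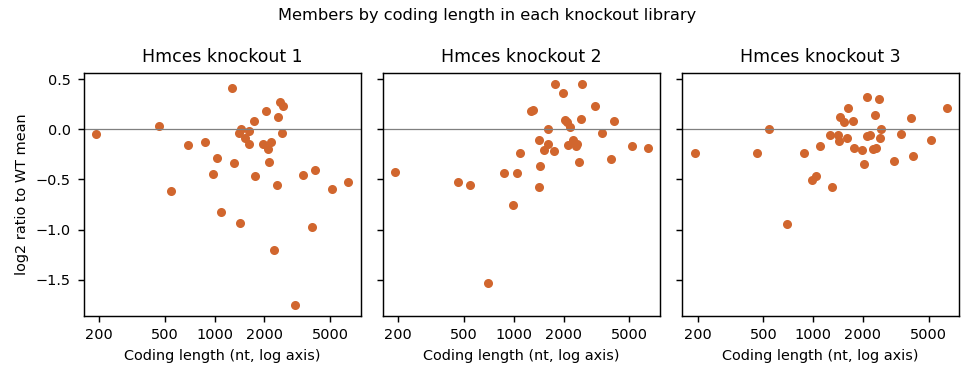
Log2 ratio to the WT mean of each of the 35 members against its coding length (log axis) in each of the 3 Hmces knockout libraries. In knockout replicate 2 the short genes lie lowest (Spearman correlation 0.50), whereas in replicate 1 the lowest points are longer genes (-0.19).

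Other genes of the pathway were given by a list of 142 symbols, of which 140 were tested. The median log2 fold change was -0.12, with 99 negative (70.7%, against 51.9% of all genes) and 41 positive, and 0 were called. It was also -0.12 without knockout replicate 1, where the median of the 35 members was -0.09, and the lists were not tested against each other. At an unadjusted p under 0.05, 8 were lower (5.71%) and 1 was higher (0.714%), against 4.84% and 4.32% of all genes. The groups did not overlap for 19 lower genes (13.6%) and 5 higher genes (3.57%), against 8.34% and 7.47%. The small subunit processome genes Tbl3, Rcl1 and Wdr46 had the smallest p-values on the lower side. Tbl3 had 55.6 ± 3.49 and 39.7 ± 1.62 FPKM (SD, n = 3 each; limma adjusted p = 0.385). Rcl1 had 90.6 ± 4.37 and 66.9 ± 4.33 FPKM (adjusted p = 0.385), and Wdr46 had 56.4 ± 6.54 and 39.8 ± 5.41 FPKM (adjusted p = 0.482). Exosc7, of the RNA exosome that trims precursor ends, had 188 ± 9.74 and 148 ± 17.4 FPKM (adjusted p = 0.490). On the higher side, Tex10, a large subunit factor gene, had 7.60 ± 1.48 and 15.0 ± 3.64 FPKM (adjusted p = 0.432). Znhit3, a small nucleolar particle assembly gene, had 42.2 ± 7.02 and 56.4 ± 11.8 FPKM (adjusted p = 0.588). The small subunit genes Esf1 and Wdr36 had 11.2 ± 2.21 and 14.7 ± 0.737 FPKM (adjusted p = 0.633) and 36.2 ± 2.06 and 42.3 ± 0.660 FPKM (adjusted p = 0.662).

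By role, the other small subunit genes had a median of -0.14 over 49 genes, large subunit genes -0.12 over 57, exosome genes -0.11 over 15, small nucleolar particle assembly genes -0.23 over 11 and RNA polymerase I genes -0.03 over 8. Polr1d, which encodes the partner subunit of the Polr1c product, had 241 ± 24.6 and 193 ± 18.3 FPKM (SD, n = 3 each; limma adjusted p = 0.517) and was named after its values were seen. The 9 host genes of small nucleolar RNAs, which release these RNAs from their introns, had a median of 0.00, with 4 negative. Gas5, the best known of them, had 202 ± 27.0 and 207 ± 35.4 FPKM (SD, n = 3 each), with overlapping groups.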

How the data were processed

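The authors deposited FPKM values per gene with 1 column per library, and build mm9, Cufflinks 2.2.1 and TopHat2 2.1.1 are listed in the submitters' processing notes. Of options, annotation and strand use nothing is stated in the labels or notes used here, so genes with processed copies and overlapping genes are less certain. Libraries were made with Smart-seq2 from 500 pg cDNA and read as 150 bp pairs, per the labels' protocols. The members and gene lists were chosen with earlier results of these data known. Genes with a mean of at least 1 FPKM over the 6 libraries were taken to log2(FPKM + 1), which understates changes of low genes, and tested two-sided in R 4.3.3 by limma 3.58.1 with a mean-variance trend and genotype as the only term. P-values were adjusted by Benjamini-Hochberg over all 11532 genes and called at 0.05. The fit was tested on simulated data. Named with values per library are the members with the 3 largest absolute limma t values in each role and the 2 most abundant; the wider list gives the 4 smallest p in each direction. Of 142 symbols on that list, 139 matched directly and 2 by synonym. Depth was estimated from low FPKM values of 982 genes with 1 transcript, assuming fragments of 200 nt. RefSeq and GENCODE M21 (GRCm38) differ from mm9 and gave only promoter letters, synonyms and lengths.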

Additional observations from a re-analysis of the deposited data

How the results depend on the processing

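No member was called by limma under any of 15 alternatives, with a lowest adjusted p of 0.15 (Fbl, without small RNA genes), and 23 of 35 members kept their direction under all of them. The count of called genes was 3 when low genes were kept, 6 with a constant prior variance, 20 with robust estimation and 32 without small RNA genes. Leaving out 1 library in turn gave between 2 and 19 calls (7 without WT replicate 2, 5 and 2 without knockout replicates 2 and 3), a median over the members between -0.18 and -0.09, between 27 and 30 negative members and a median of the wider list between -0.14 and -0.12. Under median scaling the wider list had a median of -0.14. Under quantile normalization Nop56 was 0.04, Nop58 0.00, Wdr43 0.01, Gnl3 0.00 and Ddx21 0.02, and under median scaling Rrn3 was -0.02. With 1 library left out, the range of log2 fold changes was -0.13 to 0.14 for Wdr43, -0.17 to 0.04 for Tsr1, -0.08 to 0.08 for Nop56, -0.16 to 0.11 for Ddx21, -0.18 to 0.11 for Rrn3 and -0.13 to 0.06 for Nop58. It was -0.32 to 0.13 for Pes1, -0.15 to 0.05 for Gnl3, -0.35 to 0.01 for Heatr1, -0.03 to 0.29 for Wdr75, -0.18 to 0.06 for Polr1e and -0.06 to 0.20 for Nolc1. The causes were not tested. With replicate number as a block, 2 genes were called and no member. Deviations of same-numbered WT and knockout libraries correlated at 0.08, 0.01 and 0.04, against -0.08 to 0.05 for different numbers. With 3 libraries per genotype, these values cannot show whether or not the numbers pair the libraries. The member with the fewest fragments behind a value was Gar1 in knockout replicate 2, with an estimated 137 by coding length, so counting error is largest there.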
